A study of Mus musculus with 65 samples.

Results

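The genes described here are the translation factors and aminoacyl-tRNA synthetases measured in the spinal cord of aging mice. Members were taken by gene symbol, as initiation factors (Eif1 to Eif6), elongation factors (Eef1 and Eef2), release factors (Etf1, Gspt), the Aimp scaffold proteins and the synthetases whose symbols end in ars, ars1 or ars2. The rule gave 41 genes on 53 features, out of 4209 genes with a single annotated symbol on a filter of 8448 features. No measured value entered the choice. All 41 symbols matched RefSeq by gene ID. Eef1akmt1, a methyltransferase of the elongation factor eEF1A, entered through its symbol and is counted as a member.

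Total RNA of 65 spinal cords from male and female C57BL/6 mice was reverse transcribed into radiolabelled cDNA, which was hybridized to a nylon cDNA filter, 1 filter per mouse. Mice fed ad libitum (AL) were juveniles of 17 to 44 days (n = 10), 6 months old (169 to 194 days, n = 10), 16 months old (476 to 499 days, n = 10) and 24 months old (704 to 743 days, n = 10). Mice under caloric restriction (CR) were 6 months old (174 to 194 days, n = 8), 16 months old (472 to 499 days, n = 10) and 24 months old (673 to 743 days, n = 7). AL mice ate regular feed throughout, and CR mice were stepped down from regular feed after 13 weeks of age to a fortified feed at 60% of the full ration. Except in the CR groups of 6 months (3 males, 5 females) and 24 months (3 males, 4 females), each group held 5 males and 5 females. No genetic alteration was given for any group.

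The deposited values are Z scores, scaled by array so that the features of a filter average 0 with an SD of 1. A value of 1 therefore lies 1 SD above the average feature of the same filter, and a difference is given in these Z units. The scores place a feature within its own array, so a shift common to the whole transcriptome cannot be seen, and levels of different genes were not ranked because each cDNA probe binds with its own strength. In whole spinal cord, fewer cells of a type and less RNA per cell cannot be told apart.

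Translation begins when eIF4E binds the cap of an mRNA, eIF4G bridges the cap to the ribosome, and the helicase eIF4A unwinds the leader. eIF2 delivers the initiator tRNA, eIF3 holds the small subunit on the mRNA, and elongation factors then feed in tRNAs that synthetases have charged with amino acids. The pathway is braked by 4E-binding proteins, which occupy eIF4E and are released by mTOR, and by eIF2 alpha kinases, which slow initiation under stress while raising the output of the transcription factor ATF4. Most of this control acts on protein phosphorylation, which RNA levels do not report.

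The cytosolic synthetases are textbook targets of ATF4, and the promoter sequences show where these genes carry an ATF4-type letter pattern. The pattern TGATGNAA was searched on both strands of RefSeq promoters (build GRCm38.p6), from 250 bases before to 50 bases after each annotated start. Promoter entries were present for 33 of the 41 members. The pattern lay in 4 of them, the 3 cytosolic synthetases among the members (Gars, Iars and Tars) and the elongation factor 2 kinase Eef2k. It lay in none of the 4 mitochondrial synthetases. The synthetase genes Eprs and Farsa were also measured but fall outside the symbol rule, and their promoters were not examined singly. It lay in 4.51% of all 27025 genes with an entry, and in 2.68% of the 3430 named genes of the filter with one. A match in letters is not a binding site. The 30 bases around each match are shown on the gene's strand, with the match in capitals as it reads there, the reverse complement of TGATGNAA.
Gars (chr6:55037960-55037989, plus strand): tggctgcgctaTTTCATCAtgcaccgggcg
Iars (chr13:49682126-49682155, plus strand): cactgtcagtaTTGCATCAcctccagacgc
Tars (chr15:11399655-11399684, minus strand): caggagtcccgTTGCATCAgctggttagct
Eef2k (chr7:120851094-120851123, plus strand): ctttctgcttgTTTCATCAagctcagcttg
Counted from the annotated start, where the first transcribed base is 1 and the base before it -1, the match began at position -30 in Gars, -15 in Tars, -84 in Eef2k and 8 in Iars. A start with C followed by 4 pyrimidines, the form of the tract that begins many growth-regulated translation mRNAs, was found in 0 of the 33 members and in 3.01% of all genes. Only the annotated first base was taken as the start, so a tract lying slightly away from it would be missed. The count does not show that these mRNAs lack the tract. The values of Gars, Iars, Tars and Eef2k are given with the comparisons.

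Averaged over the 65 mice, 19 of the 41 genes lay above the mean feature of the filter. Gene means ran from -1.29 to 1.90, which gives the span of the probes and no order of abundance. Among the 6 genes of cap binding and scanning (Eif4a1, Eif4b, Eif4e, Eif4e2, Eif4g2, Eif4g3), 3 means were above 0. Only 1 of the 6 eIF3 subunits was above 0. Both 4E-binding proteins were below it, Eif4ebp1 at -1.05 and Eif4ebp3 at -1.27. Of the eIF2 alpha kinases, Eif2ak1 averaged 1.81, Eif2ak4 averaged 1.22 and Eif2ak3 averaged -0.59. Within groups the median residual SD of the members was 0.118 Z units, beside 0.146 over all 7782 rows tested (genes and unnamed features).

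The arrays fell into sets that the labels do not name. A principal component analysis put 36.0% of the variance on an axis that separated 41 arrays (numbers 1 to 21 and 44 to 65) from 21 arrays (22 to 30, 34 to 43, 66 and 67), called here the first and second array set. The remaining 3 arrays (31 to 33) were set aside before the components were computed, so this axis does not place them. They are 6-month CR male replicate 2, 6-month CR female replicate 3 and 6-month AL male replicate 3. They are called here the arrays that stand apart, and their distance from the sets was not tested. The 6-month groups held 8 AL and 6 CR arrays of the first set but 1 AL and 0 CR arrays of the second, whereas the 24-month AL group held 4 of the first and 6 of the second. Age and diet were therefore tested over all 65 arrays, and again over 62 arrays with the set as a covariate. The second model also leaves out the 3 arrays that stand apart, so a change between the models cannot be credited to the set alone. Of the marker genes listed for other cell types, 17 were measured, among them C1qa, C1qb and C1qc of microglia, Gja1 and Slc1a3 of astrocytes and Nefl, Slc17a6 and Uchl1 of neurons. Of the neuronal markers Nefl averaged 0.98, Uchl1 0.53 and Slc17a6 -0.29, and of the astrocyte markers Gja1 averaged 1.13 and Slc1a3 -0.58, so in both lists 1 marker lay below the mean feature. No gene of the oligodendrocyte and endothelial lists had a feature with a single symbol, so these cells have no marker here.

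Many members differed between the array sets. Of the 41 genes, 18 differed after adjustment (limma, Benjamini-Hochberg), 8 higher and 10 lower in the second set, beside 47.0% of all rows. Since the sets were split on the first principal component of these same values, these counts describe the split and are no independent test. Eif3c, a core eIF3 subunit, averaged -0.28 in the first set and 0.75 in the second, a fitted difference of 1.04 ± 0.03 (SE). Eif3b, the scaffold of eIF3, was 0.46 higher in the second set and Gspt1, the GTPase partner of the release factor, 0.26 higher. Eif3d, the cap-binding subunit of eIF3, was 0.38 lower, Tars 0.29 lower and Gars 0.28 lower. These 6 genes were singled out after their values were seen. Since the age and diet groups hold unequal shares of the sets, most differences of these genes are given from both models.

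**Figure D1:**
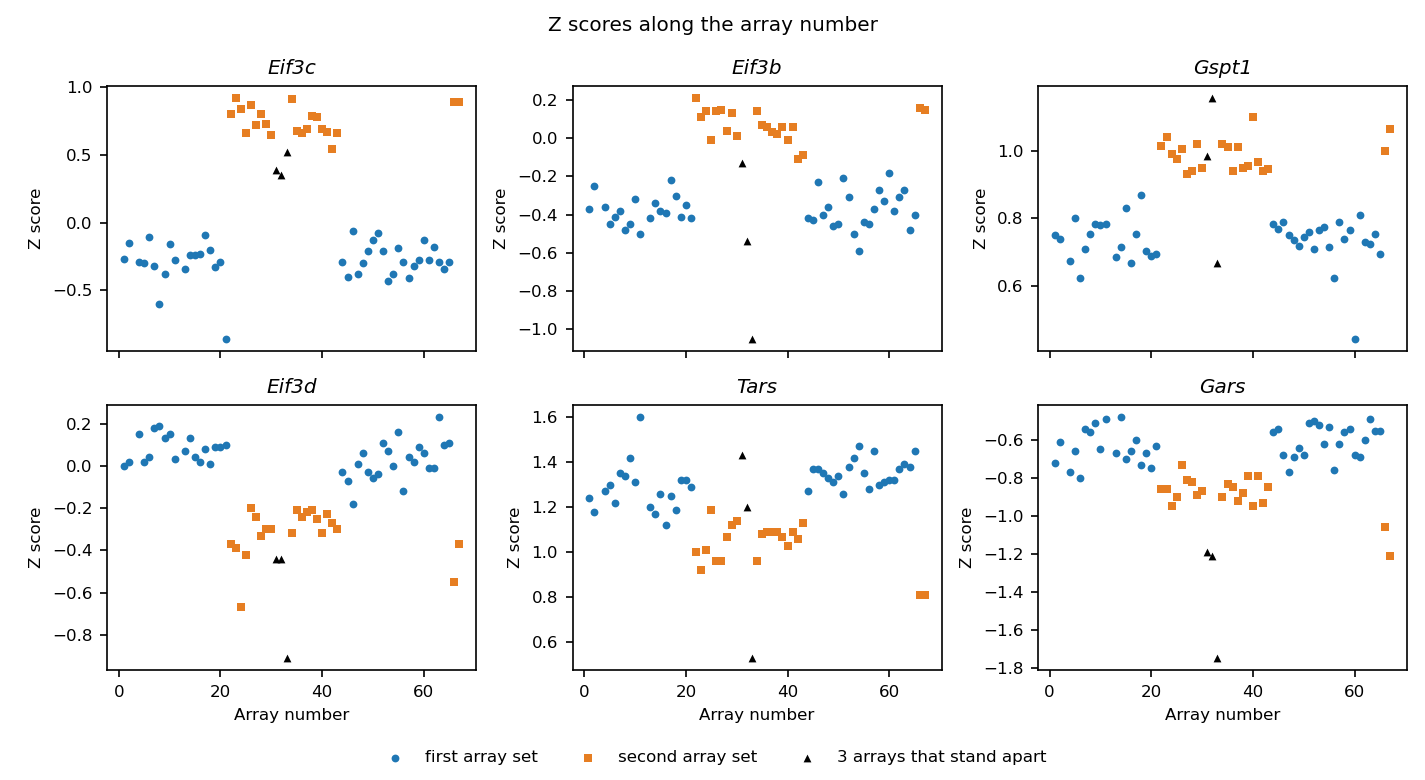
Z scores of 6 genes on each of the 65 arrays, along the array number in the labels; circles mark the first array set, squares the second and triangles the 3 arrays that stand apart. Eif3c, Eif3b and Gspt1 lie higher in the second set, and Eif3d, Tars and Gars lie lower.

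Across the adult ages of AL mice, no translation gene passed an adjusted p of 0.05. From 6 to 24 months, 0 of the 41 members were called beside 0.0643% of all rows, and the smallest adjusted p among them was 0.334, for Eif4g3. At an unadjusted p under 0.05, 4 members were higher and 1 lower at 24 months, which is 12.2% of the members beside 13.0% of all rows. The median difference of the members was 0.02, beside 0.00 over all rows. Once the array set was in the model, 1 member had an unadjusted p under 0.05, beside 3.74% of all rows, and 0 were called.

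Eif4g3, one of the eIF4G scaffolds, had the smallest unadjusted p of the 41 genes in this comparison. In AL mice it ran from 0.71 to 1.40 at 6 months (median 1.26), from 1.19 to 1.39 at 16 months (median 1.34) and from 1.26 to 1.47 at 24 months (median 1.38). Of the 10 AL mice of 6 months, 3 were low, at 0.71 (female replicate 5), 0.89 (male replicate 1) and 1.03 (male replicate 3), and the other values overlapped those of the older mice. The difference from 6 to 24 months was 0.20 ± 0.05 (SE), with all 10 old mice above the 6-month mean (unadjusted p = 0.000498, adjusted p = 0.334, limma). It was 0.15 with the array set in the model (unadjusted p = 0.00891, adjusted p = 0.997, limma), 0.16 within the first set and 0.01 within the second, where the 6-month group had 1 mouse.

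Vars2, the mitochondrial valyl-tRNA synthetase, was 0.12 ± 0.05 (SE) higher at 24 months than at 6 months (unadjusted p = 0.0158, adjusted p = 0.342, limma). Its 6-month AL values ran from -0.35 to 0.32 with a median of 0.20, and its 24-month values from 0.10 to 0.40 with a median of 0.28, so the groups overlapped. Without 6-month AL female replicate 5, at -0.35, the difference was 0.07 and no longer under an unadjusted p of 0.05. Eif4a1, the cap-complex helicase, was 0.11 ± 0.06 (SE) lower at 24 months (unadjusted p = 0.0482, adjusted p = 0.382, limma). The 24-month AL mice ranged from 0.37 to 0.97 with a median of 0.77, beside 0.73 to 0.93 at 6 months. Both mice at 0.37 were hybridized on the last arrays of the second set (male and female replicate 5). Without the male the difference was -0.07, and 10 of the 20 fits that left out 1 mouse had an unadjusted p of 0.05 or above.

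**Figure D2:**
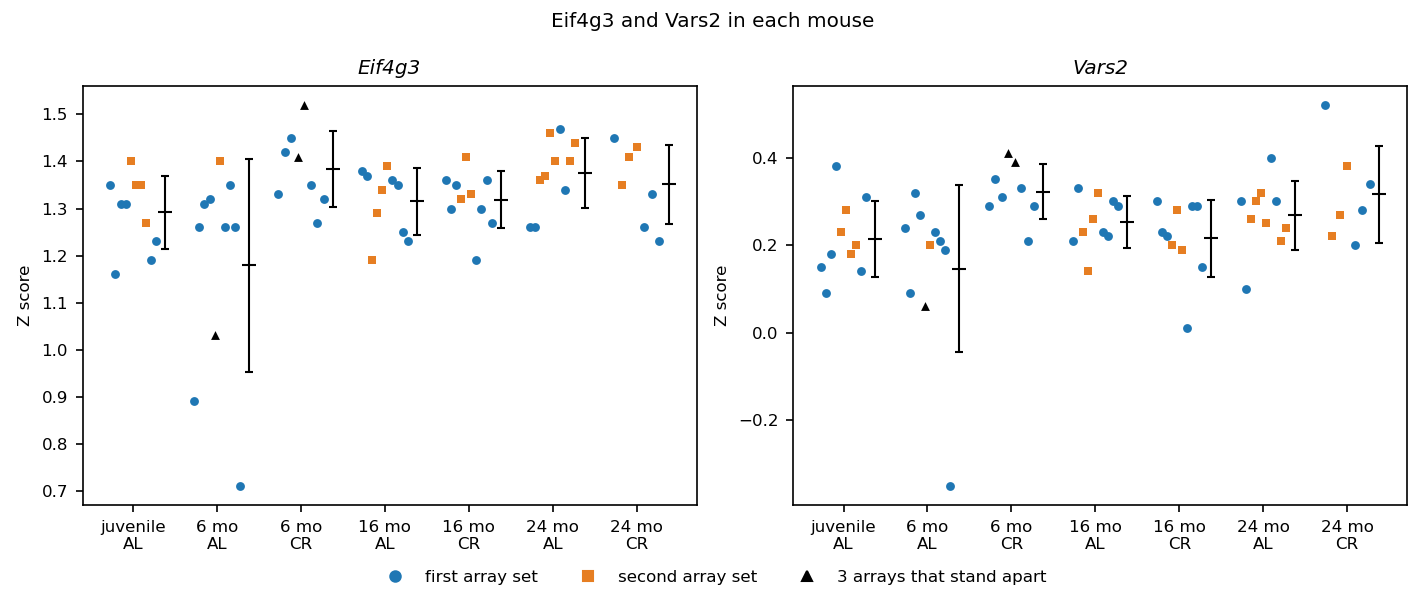
Z scores of Eif4g3 and Vars2 in each mouse by age and diet; circles mark the first array set, squares the second and triangles the 3 arrays that stand apart, and bars give the group mean and SD. Apart from the 6-month AL mice at 0.71, 0.89 and 1.03, the Eif4g3 values of the groups overlap.

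Eif3b and Gspt1 completed the list at 6 to 24 months, 0.25 and 0.16 higher in old AL mice. Modelling the array set gave -0.05 and 0.02 for these differences (adjusted p = 0.997 for each, limma). Eif3c had a difference of 0.40 with an SE of 0.23 (adjusted p = 0.444, limma), and -0.04 once the set was modelled. All 3 were among the genes that separated the array sets.

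Between 6 and 16 months of age in AL mice, 0 members were called, beside 0.0257% of all rows. There were 7 members higher at 16 months at an unadjusted p under 0.05 and none lower, which is 17.1% of the members beside 13.3% of all rows. Of all rows, 5.28% were higher and 8.03% lower. The 7 were Eif1a, Eif2s2, Eif4b, Eif4e, Eif4e2, Eif4g3 and Vars2, and 32 of the 41 differences were above 0, beside 53.9% of all rows. The model with the array set also leaves out the 3 arrays that stand apart. In it, 31 of the 41 differences were above 0, beside 53.3% of all rows. Of the members, 1 had an unadjusted p under 0.05 there, beside 6.72% of all rows. It was Eif2s2, the beta subunit of eIF2.

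Eif2s2 ran from -1.74 to -0.83 in 6-month AL mice, with a median of -0.96, and from -1.09 to -0.67 at 16 months, with a median of -0.82. The lowest value belonged to 6-month AL male replicate 3, and the groups overlapped. The difference was 0.18 ± 0.07 (SE) (unadjusted p = 0.0128, adjusted p = 0.338, limma), and 0.11 with the array set modelled (unadjusted p = 0.0176). It was 0.17 within the first set and -0.06 within the second. Without 6-month AL male replicate 3 it was 0.10 and no longer under an unadjusted p of 0.05.

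From 16 to 24 months in AL mice, 0 members were called, as were 0% of all rows. A single member had an unadjusted p under 0.05, beside 2.00% of all rows. This was Eif4b, the cofactor of the eIF4A helicase, at -0.35 ± 0.12 (SD) in 16-month mice and -0.45 ± 0.08 (SD) in 24-month mice, n = 10 each (difference -0.10, unadjusted p = 0.0312, adjusted p = 0.956, limma). In the model with the array set 2 members were lower at an unadjusted p under 0.05, beside 7.48% of all rows: Eif4b by 0.11 and Eif2d, an alternative initiator tRNA carrier, by 0.13.

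In the youngest comparison, juvenile against 6-month AL mice, 0 members were called, beside 0.141% of all rows. One member was higher and 1 lower at an unadjusted p under 0.05, beside 2.71% of all rows. Eif3a, the largest eIF3 subunit, was 0.11 ± 0.05 (SE) higher at 6 months, and Eif4g3 was 0.11 ± 0.05 (SE) lower (adjusted p = 0.984 for each, limma). Neither kept an unadjusted p under 0.05 with the array set modelled, where the values were 0.07 and -0.08, nor without 1 mouse of 6 months, where Eif3a was 0.07 (male replicate 3 left out) and Eif4g3 -0.05 (female replicate 5 left out). With the set modelled, the 1 member under 0.05 was the mitochondrial threonyl-tRNA synthetase Tars2, 0.07 higher at 6 months (adjusted p = 0.999, limma), beside 3.93% of all rows.

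Aging under caloric restriction also left every member short of the adjusted threshold. From 6 to 16 months of age, 0 members and 0% of all rows were called. Iars and Eif2d were higher and Aimp1 and Vars2 lower at an unadjusted p under 0.05, together 9.76% of the members beside 6.87% of all rows. Eif2d had a difference of 0.25 ± 0.12 (SE) and Iars, the cytosolic isoleucyl-tRNA synthetase, 0.12 ± 0.06 (SE). In the 6-month CR group Eif2d ran from -0.74 to 0.56, and its lowest values, -0.74 and -0.44, belonged to the mice whose arrays stood apart. Without the 3 arrays that stood apart, the differences were -0.02 for Eif2d and 0.00 for Iars. Modelling the array set instead left a single member under 0.05, beside 3.70% of all rows: Eif3c, 0.20 lower at 16 months (adjusted p = 0.999, limma).

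From 16 to 24 months of age under CR, 0 members and 0% of all rows were called. At an unadjusted p under 0.05, 1 member was higher and 1 lower, beside 5.29% of all rows. Aimp1, a scaffold protein of the multi-synthetase complex, was the higher one. It ran from -0.42 to -0.20 in 16-month CR mice, with a median of -0.31, and from -0.30 to -0.08 in 24-month CR mice, with a median of -0.22. All 7 old mice lay above the 16-month mean, though the groups overlapped, and the difference was 0.13 ± 0.04 (SE) (unadjusted p = 0.00102, adjusted p = 0.809, limma). In the model with the array set it was 0.12 (unadjusted p = 0.000263, adjusted p = 0.165, limma), with 0.13 within the first set and 0.08 within the second.

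Iars was the lower one, by 0.15 ± 0.06 (SE) (unadjusted p = 0.0176, adjusted p = 0.809, limma). Its 16-month CR values ran from -0.21 to 0.11 with a median of -0.10, and its 24-month CR values from -0.39 to -0.04 with a median of -0.21. The groups overlapped, and 6 of the 7 old mice lay below the 16-month mean. The difference was -0.20 within the first set and -0.07 within the second. There were 5 members under 0.05 once the array set was modelled, beside 17.4% of all rows: Aimp1, Eif4g2 and Tars2 higher, Iars and Eef2k lower.

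From 6 to 24 months under CR, 0 members were called, beside 0.0257% of all rows. A single member had an unadjusted p under 0.05, beside 8.75% of all rows, and this was Eif3h, a subunit of eIF3. It averaged -1.09 ± 0.22 (SD, n = 8) at 6 months and -1.44 ± 0.40 (SD, n = 7) at 24 months (difference -0.35 ± 0.15 (SE), unadjusted p = 0.0228, adjusted p = 0.505, limma). Without 24-month CR female replicate 3 its difference was -0.23, and with the array set modelled it was -0.27 (adjusted p = 0.393, limma). In that model 5 members were under 0.05, beside 17.1% of all rows: Aimp1, Eif1a, Eif4g2 and Tars higher and Iars lower.

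**Figure D3:**
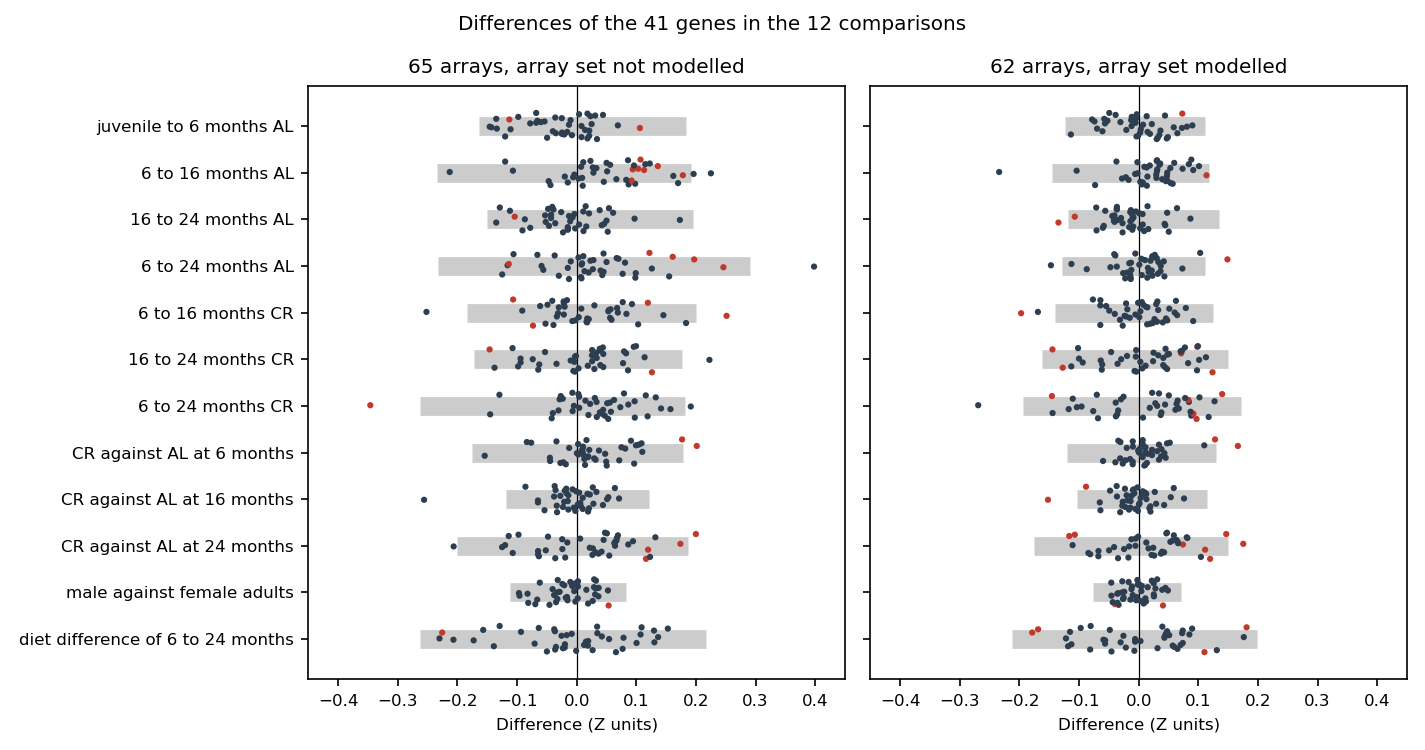
Differences in Z units of the 41 genes (points) in the 12 comparisons, without the array set in the model (left, 65 arrays) and with it (right, 62 arrays); red points have an unadjusted p under 0.05 and grey bars hold the central 95% of all 7782 rows. Most points lie within the grey bars, and Eif3c, at 0.40 from 6 to 24 months in AL mice, is at -0.04 once the set is modelled.

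Diet was compared at each adult age. At 6 months, 0 members were called, beside 0.0257% of all rows, and 2 were higher in CR mice at an unadjusted p under 0.05, beside 7.70% of all rows. They were Eif4g3 and Vars2. Of all rows, 4.72% were higher and 2.98% lower in CR mice. Eif4g3 ran from 1.27 to 1.52 in the 8 CR mice (median 1.38) beside 0.71 to 1.40 in the 10 AL mice (median 1.26), a difference of 0.20 ± 0.06 (SE) (unadjusted p = 0.000923, adjusted p = 0.554, limma). Every CR mouse lay above the AL mean, 6 of the 10 AL mice lay below the lowest CR mouse, and the other AL values fell within the CR range. Vars2 ran from 0.21 to 0.41 in CR mice (median 0.32) beside -0.35 to 0.32 in AL mice (median 0.20), a difference of 0.18 ± 0.05 (SE) (unadjusted p = 0.00152, adjusted p = 0.554, limma). Eif4g3 and Vars2 were also the 2 members under 0.05 with the array set modelled, beside 2.18% of all rows, at 0.17 and 0.13.

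These 6-month AL mice also served as the younger group of the AL age comparison, in which Eif4g3 and Vars2 were higher at 24 months. These comparisons thus share 10 mice. In CR mice the change of Eif4g3 from 6 to 24 months differed from that in AL mice by -0.23 ± 0.08 (SE) (unadjusted p = 0.00826, adjusted p = 0.999, limma). It was the 1 member of 41 under 0.05 in this test of the diet difference, beside 1.54% of all rows, and 0 members and 0% of all rows were called. When the array set was modelled, Aimp1 and Tars had a positive and Eif4g3 and Iars a negative diet difference under 0.05, 4 members beside 9.23% of all rows.

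Between the diets at 16 months, 0 members and 0% of all rows were called, and 0 members had an unadjusted p under 0.05, beside 0.797% of all rows. Differences ran from -0.26, for Eif3c, to 0.07. In the model with the array set, Eif3c (-0.15) and Tars2 (-0.09) were lower in CR mice at an unadjusted p under 0.05 (adjusted p = 0.999 for each, limma), 2 members beside 3.30% of all rows.

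At 24 months, 0 members and 0% of all rows were called. Aimp1, Eif2b2, Eif4a1 and Tars were higher in CR mice at an unadjusted p under 0.05, 9.76% of the members beside 7.35% of all rows. Of all rows, 5.36% were higher and 1.99% lower. Aimp1 ran from -0.46 to -0.22 in AL mice (median -0.27) and from -0.30 to -0.08 in CR mice (median -0.22). The 7 CR values were all higher than the mean of the AL mice, the groups overlapped, and the difference was 0.12 ± 0.04 (SE) (unadjusted p = 0.00231, adjusted p = 0.636, limma). Modelled with the array set the difference was 0.12 with an adjusted p of 0.0948, the smallest among the members in the 12 comparisons of these 2 limma models. It was 0.17 within the first set and 0.05 within the second. The CR males of this age were all 673 days old, whereas the AL mice were 704 to 743 days old, and the part of this age gap was not tested.

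Eif4a1 ran from 0.37 to 0.97 in 24-month AL mice (median 0.77) and from 0.68 to 1.11 in 24-month CR mice (median 0.91). The difference was 0.17 ± 0.06 (SE) (unadjusted p = 0.00744, adjusted p = 0.636, limma), with 6 of 7 CR mice above the AL mean. It was 0.18 with the array set modelled, 0.14 within the first set and 0.16 within the second. The second-set difference rests on AL male and female replicate 5, both at 0.37. The other AL mice of that set, at 0.76 to 0.97, overlapped its CR mice, at 0.68 to 0.94. Eif2b2, a subunit of the eIF2 exchange factor, was 0.12 higher (unadjusted p = 0.0315, adjusted p = 0.636, limma), at 0.25 within the first set and -0.01 within the second.

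Among the cytosolic synthetases of the member list, whose promoters held the TGATGNAA pattern, the 24-month differences ran in both directions. Tars, the threonyl-tRNA synthetase, ran from 0.81 to 1.47 in AL mice (median 1.08) and from 0.96 to 1.60 in CR mice (median 1.31). Its difference was 0.20 ± 0.09 (SE) (unadjusted p = 0.0384, adjusted p = 0.636), and 0.15 with the array set modelled (unadjusted p = 0.00264, adjusted p = 0.0994, limma). The lowest AL values of Tars, both 0.81, again belonged to AL male and female replicate 5. The other AL mice of the second set, at 0.96 to 1.09, overlapped its CR mice, at 0.96 to 1.19. Iars was 0.11 ± 0.06 (SE) lower in CR mice (adjusted p = 0.636), and 0.12 lower with the array set modelled (unadjusted p = 0.0189, adjusted p = 0.184, limma). Gars, the glycyl-tRNA synthetase, had a difference of 0.13 with a 95% interval of -0.10 to 0.36, and of 0.08 with the array set modelled. Tars and Gars were named here after their values were seen.

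In the model with the array set, 7 members were under 0.05 at 24 months, beside 18.4% of all rows. Of these, 5 were higher in CR mice (Aimp1, Eif2b2, Eif3m, Eif4a1 and Tars), and Iars and the mitochondrial arginyl-tRNA synthetase Rars2 were lower. These comparisons share the 7 CR mice of 24 months with the CR age comparisons. The share of members was 17.1%.

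**Figure D4:**
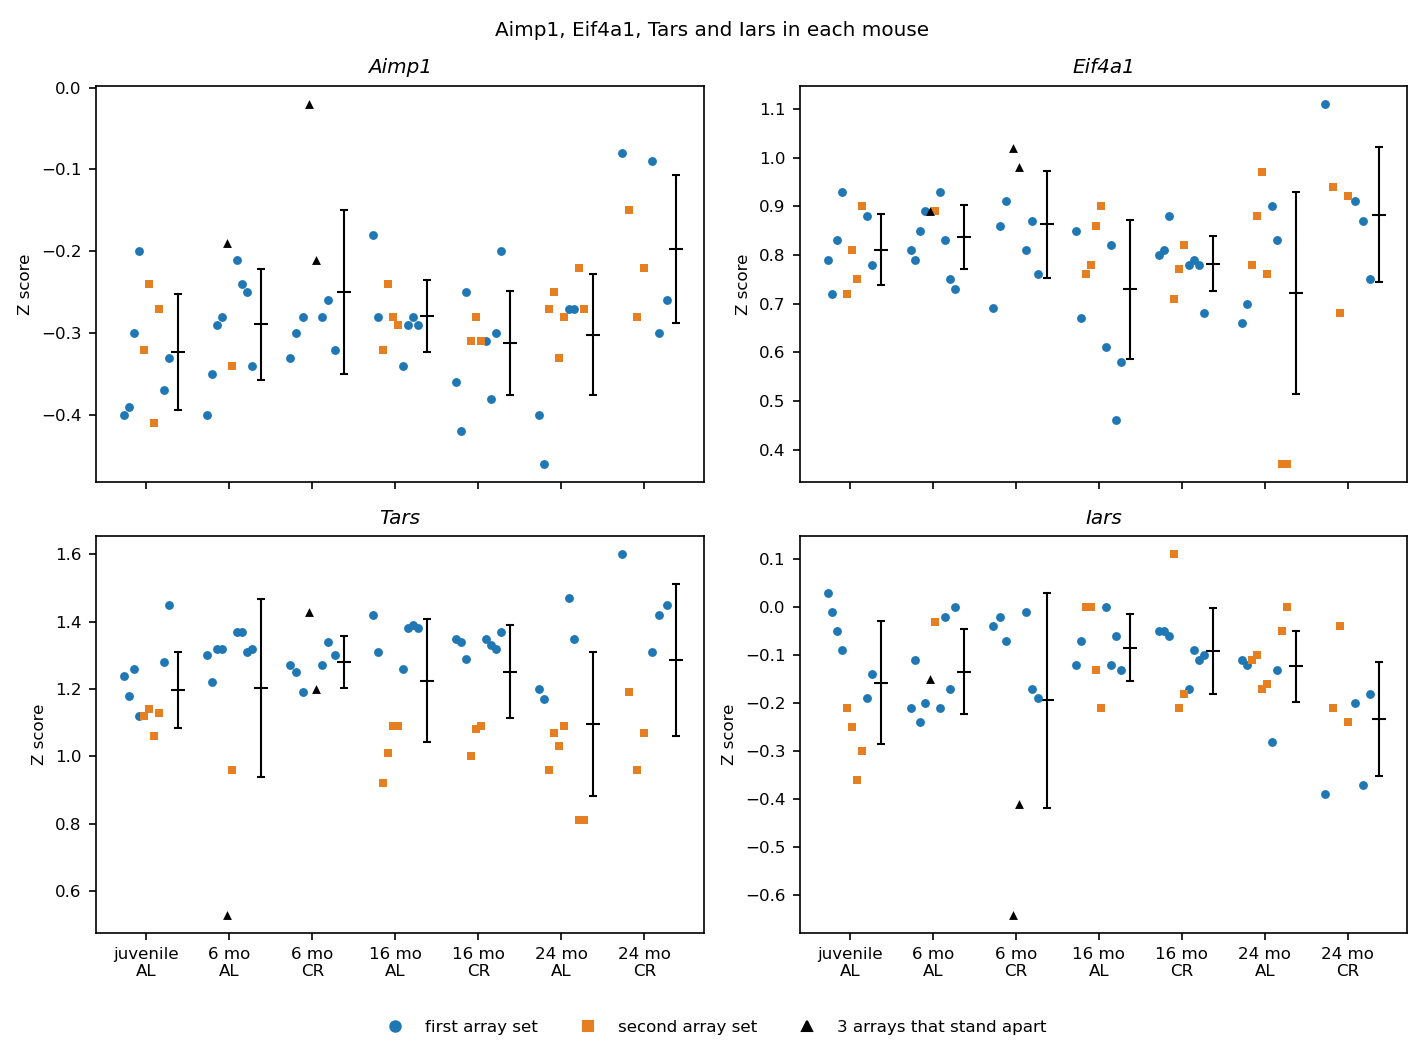
Z scores of Aimp1, Eif4a1, Tars and Iars in each mouse by age and diet; circles mark the first array set, squares the second and triangles the 3 arrays that stand apart, and bars give the group mean and SD. At 24 months the CR medians of Aimp1 (-0.22), Eif4a1 (0.91) and Tars (1.31) lie above the AL medians (-0.27, 0.77 and 1.08), that of Iars lies below, and all ranges overlap.

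Sex was compared over the adult mice, both diets included. No member and 0% of all rows were called, and 1 member was under an unadjusted p of 0.05, beside 3.51% of all rows. Aimp1 was 0.05 ± 0.02 (SE) higher in males (unadjusted p = 0.0103, adjusted p = 0.991, limma), and 0.04 higher with the array set modelled (unadjusted p = 0.0309). In the 24-month CR group the 3 males, at -0.15, -0.09 and -0.08, lay above the 4 females, at -0.30, -0.28, -0.26 and -0.22. All 3 males were 673 days old and the females 703 to 743 days, so sex and age cannot be told apart in this group. This split was noticed after the values were seen and was not tested. In the model with the array set 2 members were under 0.05, beside 4.72% of all rows, Aimp1 higher and Eef1a1, the main carrier of charged tRNAs, lower in males.

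The genes that brake translation had no unadjusted p under 0.05 in the 12 comparisons without the array set. Eif2ak1, the heme-regulated eIF2 alpha kinase, had a median of 1.82 in 6-month AL mice and 1.83 in 24-month AL mice, and its difference of 0.05 had a 95% interval of -0.04 to 0.13. Eif2ak3, the kinase of the endoplasmic reticulum (PERK), differed by 0.01 with an interval of -0.08 to 0.10. Eif2ak4, the amino acid sensor GCN2, differed by 0.04 with an interval of -0.03 to 0.11.

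At 24 months the differences of CR from AL mice were 0.04 for Eif2ak1 (95% interval -0.05 to 0.13), -0.06 for Eif2ak3 (-0.16 to 0.03) and -0.05 for Eif2ak4 (-0.13 to 0.03). Eif4ebp1, the mTOR-regulated inhibitor of eIF4E, differed by 0.09 (-0.05 to 0.24) and Eif4ebp3 by 0.07 (-0.05 to 0.19). Eef2k, which slows elongation by phosphorylating eEF2, ran from -0.42 to 0.42 in 6-month AL mice (median -0.29) and from -0.60 to -0.02 in 24-month AL mice (median -0.36), with a difference of -0.13 (95% interval -0.27 to 0.02). That difference was -0.01 with the array set modelled. The highest value, 0.42, belonged to 6-month AL male replicate 3.

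Other genes of the pathway were described by lists. None of the 9 other translation regulators measured, the 6 genes of mTOR and MNK signalling (Mknk1, Mknk2, Mtor, Rptor, Sesn1, Tsc1), the 4 integrated stress response genes (Asns, Atf4, Nupr1, Psat1), the synthetase subunits Eprs and Farsa or the mitochondrial initiation factor Mtif2 was called from 6 to 24 months in AL mice or between diets at 24 months. Asns, the asparagine synthetase and an ATF4 target, was 0.31 higher in 24-month than in 6-month AL mice, at an unadjusted but not an adjusted p under 0.05, and 0.03 higher with the array set modelled. Of 53 cytosolic ribosomal protein genes, 11 were higher and 0 lower from 6 to 24 months in AL mice at an unadjusted p under 0.05. Over all rows 6.67% were higher and 6.35% lower. The median difference of the 53 genes was 0.09. With the array set modelled, 4 of the 53 were higher, beside 1.90% of all rows, and their median over the 53 was 0.03. In either model 0 were called.

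Of the cell type markers, the microglial C1qa was 0.29 higher from 6 to 24 months in AL mice and was called, but not with the array set modelled, where it was 0.24 higher. The mean of the 3 microglial markers ran from -0.30 to 0.06 over the 6-month AL mice and from 0.05 to 0.25 over the 24-month AL mice. The part of microglia in the differences of the translation genes was not tested.

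Where a gene was printed on the filter more than once, its features did not always move together. There were 7 such members. Over the 62 arrays, with group and array set removed, 13 of the 20 pairs of features of the same gene had a correlation above 0 and 4 had one above 0.5, with a median of 0.25. Within an array these features share the hybridization, and features near each other on the filter would also share its position. The positions used here were counted along the feature number only.

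Eef1g, the gamma subunit of the eEF1 exchange complex, had 5 features. Of these, 3 correlated with each other at 0.61 to 0.73, and all 3 lay at position 7 of the 22 positions counted along the feature number. The feature with the lowest mean, 0.31, correlated at -0.41 with another one, both at position 10. From 6 to 24 months in AL mice the feature with the highest mean, 1.49, differed by 0.13 and the lowest by -0.08. Eef1a1 had 3 features with differences of 0.04, 0.12 and 0.14. The features of Gspt1 differed by 0.33 and 0.00, and only the former separated the array sets (0.55 and -0.04 in the second set relative to the first).

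The features of Eif4e, the cap-binding protein, moved in opposite directions between the array sets, 0.40 and -0.09, and correlated at -0.30. For Eif4g2, an eIF4G relative that lacks the eIF4E site, the 3 features differed by -0.05, 0.49 and -0.15 between the sets. Those of Eif1ax differed by -0.05 and 0.17 and those of Iars2, the mitochondrial isoleucyl-tRNA synthetase, by -0.04 and -0.07. Gene averages such as those of Gspt1, Eif4e, Eif4g2 and Eif1ax therefore combine features that differed in direction between the array sets.

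Some members followed the ribosomal protein genes from mouse to mouse. The correlation of each member with the mean of the 53 ribosomal protein genes was taken over 62 arrays after group and array set had been removed, with 100000 permutations within the array sets. Of the 41 correlations computed, 8 were above 0 and 0 below at an adjusted p under 0.05. The weakest of the 8 was Eif2d (r = 0.34), whose value 10.1% of the other rows, ribosomal protein genes left out, reached or passed. After centring by position along the feature number, Eif1ad went from 0.37 to 0.08 and Eif3b from 0.35 to 0.13. The 2 strongest were Eif2s2 and Eef1b2, the exchange factor of eEF1A. All points share the hybridization of the array, so a correlation is a description of these arrays.

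Eif2s2 had r = 0.69 and rho = 0.71 (permutation p = 1e-05 for each, the smallest these permutations can give, adjusted p = 0.000205). It was 0.69 within the first set, 0.72 within the second and 0.70 without the 2 arrays farthest from the median of the ribosomal mean. After centring by position along the feature number it was 0.77. Eef1b2 had r = 0.62 and rho = 0.62 (permutation p = 1e-05 for each, adjusted p = 0.000205), with 0.65 and 0.53 within the sets, 0.57 without the 2 farthest arrays and 0.37 after position centring. Over all 7782 rows the quartiles of the correlations were -0.19 and 0.17, and the median of the members was 0.01. Gars (r = 0.40) and Eif4e (r = 0.42) followed, and the lowest was Eif1a (r = -0.31), whose product helps the scanning ribosome to find the start codon.

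**Figure D5:**
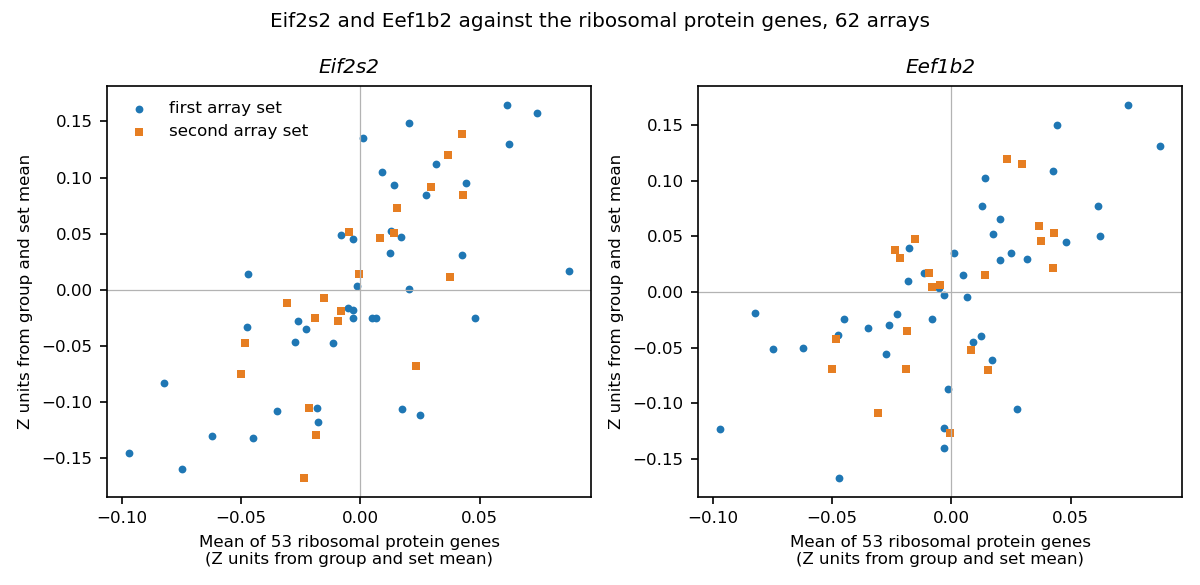
Eif2s2 and Eef1b2 against the mean of 53 ribosomal protein genes on 62 arrays, each in Z units from the mean of its group and array set; circles mark the first array set and squares the second. Points of both sets run along a rising line, with r = 0.69 for Eif2s2 and r = 0.62 for Eef1b2.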

How the data were processed

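Per the labels, which name 33P as the isotope where the study's methods name 32P, the authors hybridized radiolabelled cDNA to nylon cDNA filters, scanned them and converted intensities to Z scores within each array, and these deposited scores were used as they stand. The log base and the background treatment are not given in the sources used here. Gene symbols came from the platform annotation. Features with 1 symbol were averaged per gene, and all other features stayed as their own rows, giving 7782 rows. The design text of the series names 67 mice, of which 65 were analysed here.

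Group means (14, by stage, diet and sex) were fitted with limma 3.58.1 in R 4.3.3 (lmFit, eBayes), with sexes weighted equally in each of the 12 contrasts and Benjamini-Hochberg adjustment over all rows at 0.05. Fitted differences can therefore depart slightly from differences of plain means. The array sets were defined by the sign of the first principal component over all features, computed without arrays 31 to 33, and the model with the array set leaves these 3 arrays out. Because the sets were found in the data, they are no batch the labels name. Each mouse is 1 array, so p-values measure the spread between mice and their hybridizations together. Correlations and figures used Python. The fits were tested on simulated data.

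The members and lists were chosen with earlier results of these data known. Genes are named where they had the 2 smallest unadjusted p in a direction of a comparison under 0.05, belong to a paralogue set, are eIF2 alpha kinases or Eef2k, or have several features. Others are named by role or count, or were chosen after their values were seen. Alternatives were array weights, quantile normalization, the array round, position centring with the array set, single features, rows with a mean above 0, the selection rule of the study's methods, a left-out array with a conflicting label, and each mouse left out in turn. The number of arrays limits the precision, which the standard errors give.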

Additional observations from a re-analysis of the deposited data

Results flagged for a closer look

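In 29 groups of named genes with up to 10 mice, the most extreme mouse was set against the rest by Dixon's ratio, and 6 groups had a mouse far from the others, where chance gives about 1 in 20. Of these, 3 belonged to arrays that stood apart: Eif3a in 6-month AL male replicate 3 was 0.03 (the next mouse -0.26), Eif2s2 in the same mouse was -1.74 (next -1.05), and Aimp1 in 6-month CR male replicate 2 was -0.02 (next -0.21). Vars2 was -0.35 in 6-month AL female replicate 5 (next 0.06), the mouse that also had the lowest Eif4g3 of its group. Iars was 0.11 in 16-month CR female replicate 2 (next -0.05). Vars2 was 0.01 in 16-month CR male replicate 4 (next 0.15).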

How the results depend on the processing

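The number of members called at an adjusted p under 0.05 stayed at 0 in 115 of 119 alternatives of the 12 comparisons, and in all 275 fits that left out 1 mouse (range 0 to 0). The exceptions were array weights from 6 to 24 months in AL mice, with 6 members (Eif3b, Eif3c, Eif4g3, Gspt1, Tars and Vars2) beside 22.2% of all rows, in a fit of the weights that stopped before it converged, and the selection rule of the study's methods, which adjusts for no multiple testing. That rule took 1 member (Eif4g3) from 6 to 24 months in AL mice beside 1.75% of all rows, 1 (Eif2d) from 16 to 24 months in AL mice beside 0.861%, and 2 (Eif4g3 and Vars2) between diets at 6 months beside 0.591%. Of the 21 named differences, 11 kept an unadjusted p under 0.05 with the array set modelled. From 6 to 16 months under CR, Iars turned to -0.00475 without the 3 arrays that stood apart, to -0.000884 with the array set modelled and to -0.00667 within the first set. Eif2d turned to -0.0243 without those arrays and within the first set, to -0.0236 with the set modelled and to -0.0142 with position centring added. Aimp1 turned to 0.0149 with position centring and the set. Within the second set, with 1 AL mouse of 6 months, Eif4g3 was 0.0575 from juvenile to 6 months and -0.0975 from 6 to 16 months, and Eif2s2 was -0.06 from 6 to 16 months. The cause of these changes was not tested. With the array round as a block the count was 0 in each of the 12 comparisons. No paired analysis was possible because the labels give no replicate numbers that groups share, and the numbers used here follow accession order.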
